A study of Arabidopsis thaliana and Ginkgo biloba and Brassica rapa with 13 samples.

Results

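The methylated cytosines of ribosomal RNA (rRNA) in the marine green alga Caulerpa taxifolia were compared with those of 4 land plants. All 16 rRNA positions of the percentage table were taken, whatever their value, in 5 of the 6 species; the alga Nannochloropsis oculata was not used. Of the 13 samples of the series, the comparison concerned 7, of which 6 came from land plants and 1 was the C. taxifolia bisulfite library. C. taxifolia fronds were set against Arabidopsis thaliana seedlings of 10 days, flag leaf of the durum wheat Triticum durum, and Brassica rapa and Ginkgo biloba material that the labels call leaf and the methods of the study call shoot apex. All were wild type, and total RNA was used throughout. The A. thaliana value is a mean that the authors took over 3 libraries, and every other species had 1 library, so no spread between replicates could be set beside any difference. Species and tissue changed together and cannot be told apart. With 1 species against 4, an exact permutation test cannot go below p = 0.2, so levels are described and not tested.

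C. taxifolia belongs to the siphonous green algae, whose fronds, stolons and rhizoids are formed by a giant cell with many nuclei and no cross walls. Like land plants it has ribosomes in the cytosol, the chloroplast and the mitochondrion, with rRNA from the nuclear, chloroplast and mitochondrial genomes in that order. 5-methylcytosine (m5C) is set on rRNA by methyltransferases such as Nop2 and Rcm1 in yeast and RsmB, RsmF and RlmI in Escherichia coli. The RNA bisulfite method (RBS-seq) converts cytosine without the methyl group to uracil, so that it appears as thymine in the reads. The percent methylation of a position is the share of cytosine among the cytosines and thymines mapped there. A position was taken as called at 20% or more, the minimum of the authors. Other modified cytosines can also resist bisulfite, so each called position is a candidate m5C site.

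The 8 sites called in C. taxifolia are shown with 20 bases on each side, 5′ to 3′ and as DNA letters, from its deposited references. The capital marks the methylated cytosine, and the names use the positions of the A. thaliana references, where base 1 is the 5′ end.
nuclear 25S C2268: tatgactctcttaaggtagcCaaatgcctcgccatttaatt
nuclear 25S C2860: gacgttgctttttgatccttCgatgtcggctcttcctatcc
chloroplast 16S C916: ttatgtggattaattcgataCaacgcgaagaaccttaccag
chloroplast 23S C1940: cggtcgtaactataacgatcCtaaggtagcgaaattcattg
chloroplast 23S C1977: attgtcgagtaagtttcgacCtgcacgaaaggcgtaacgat
mitochondrial 18S C960: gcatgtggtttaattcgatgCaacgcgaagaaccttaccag
mitochondrial 26S C1549: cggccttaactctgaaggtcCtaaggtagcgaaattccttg
mitochondrial 26S C1586: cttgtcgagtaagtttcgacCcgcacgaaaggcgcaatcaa

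The matching A. thaliana stretches are shown for the sites whose surroundings are compared later, with the same capital.
A. thaliana nuclear 25S C2268: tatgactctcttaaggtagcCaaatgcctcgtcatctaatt
A. thaliana nuclear 25S C2860: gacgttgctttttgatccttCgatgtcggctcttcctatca
A. thaliana chloroplast 16S C916: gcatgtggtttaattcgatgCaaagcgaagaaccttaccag
A. thaliana chloroplast 23S C1940: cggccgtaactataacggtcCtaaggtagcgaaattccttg
A. thaliana chloroplast 23S C1977: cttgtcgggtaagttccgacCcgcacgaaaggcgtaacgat
A. thaliana mitochondrial 18S C960: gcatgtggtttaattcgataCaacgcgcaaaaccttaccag
A. thaliana mitochondrial 26S C1549: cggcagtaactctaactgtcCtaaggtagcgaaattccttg
A. thaliana mitochondrial 26S C1586: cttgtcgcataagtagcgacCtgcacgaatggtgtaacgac

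In the references of C. taxifolia itself the sites lay at other positions, because its rRNAs differ in length. C2268 and C2860 of nuclear 25S rRNA were bases 2209 and 2790. C916 of chloroplast 16S rRNA was base 909, and C1940 and C1977 of chloroplast 23S rRNA were bases 1552 and 1589. C960 of mitochondrial 18S rRNA was base 907, and C1549 and C1586 of mitochondrial 26S rRNA were bases 1507 and 1544. Genome coordinates were available for A. thaliana alone, on the TAIR10.1 assembly. There C2268 lay at 8412 of chromosome 2 and at 14202383 of chromosome 3, and C2860 at 9004 and 14202975, in genes AT2G03875 and AT3G06365. The chloroplast sites lay in the rRNA genes of the inverted repeat, with C916 at 101927 and 136722, C1940 at 106630 and 132019, and C1977 at 106667 and 131982. On the minus strand, the mitochondrial genome held the last 3 sites, with C960 at 127264 in the 18S rRNA gene and C1549 and C1586 at 141730 and 141693 in the 26S rRNA gene.

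C. taxifolia had a percentage at 11 of the 16 positions and another base at 5. Of the 11 percentages 8 were called (72.7%), against 53.8% of the percentages listed for A. thaliana, 63.6% for B. rapa, 93.3% for T. durum and 53.8% for G. biloba. For B. rapa the listed letter matched its deposited reference at 13 of 16 positions only. C1703, C1713 and C1715 were listed as thymine where that reference has cytosine, cytosine and guanine. These positions lie in nuclear 18S rRNA, where the deposited B. rapa reference is the same letters as that of G. biloba. It has 1811 bases, against a listed length of 1806. The mismatches therefore concern that reference and cannot show whether the B. rapa share is right. C. taxifolia matched at 16 of 16. Nuclear rRNA carried 2 of the called sites, chloroplast rRNA 3 and mitochondrial rRNA 3. In all 5 species 7 sites were called, which is 43.8% of the 16 positions, and they comprised 2 nuclear, 3 chloroplast and 2 mitochondrial sites. These are called the held sites. C. taxifolia had 0 sites that no land plant had, although a position called in C. taxifolia alone could enter the table only if the authors listed it. The remaining called site of C. taxifolia, mitochondrial C1549, was shared with 1 land plant, T. durum. Another 6 sites were called in a land plant but not in the alga, and all 6 belonged to a cluster in T. durum nuclear 18S rRNA. The authors propose that clustered sites there may be cytosines left unconverted because the rRNA is strongly folded, which was not tested here. The T. durum share of 93.3% counts the cluster as called.

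**Figure D1:**
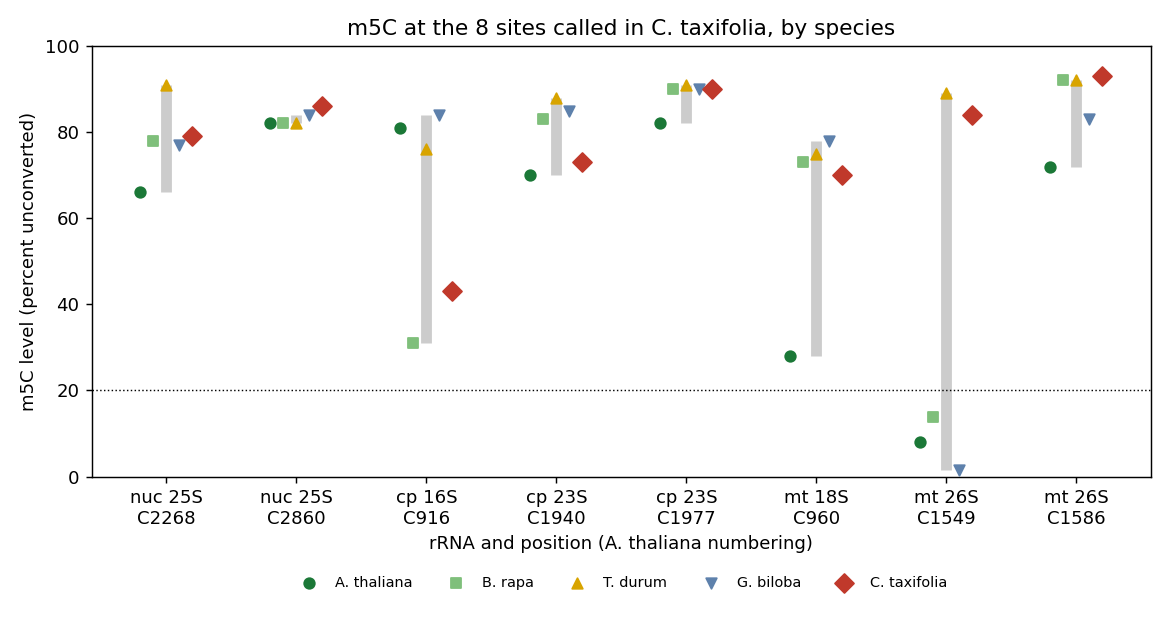
Percent methylation (vertical axis, 0 to 100%) at the 8 sites called in C. taxifolia (horizontal axis, by rRNA, with nuc for nuclear, cp for chloroplast and mt for mitochondrial). Each point is 1 library, or the authors' mean of 3 for A. thaliana, grey bars span the 4 land plants and the dotted line is the 20% minimum. C. taxifolia lies above the bar at C2860 and C1586 and inside it at the other sites, with its lowest level, 43%, at C916.

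Nuclear large subunit rRNA held its pair of sites at high levels in the alga. At C2268 the land plants had 66% (A. thaliana), 78% (B. rapa), 91% (T. durum) and 77% (G. biloba), and C. taxifolia had 79%. The algal level was 1.5 percentage points above the land plant median of 77.5% and inside their range. At C2860 the land plants had 82%, 82%, 82% and 84% in the same order, and C. taxifolia had 86%. C2860 was the most even held site among the land plants, and the alga lay 2 percentage points above the highest of them. The median of the nuclear pair was 82.5% in C. taxifolia, 74% in A. thaliana, 80% in B. rapa, 86.5% in T. durum and 80.5% in G. biloba.

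The chloroplast sites gave both the lowest called level in C. taxifolia and a level equal to the land plant median. At C916 of the small subunit 16S rRNA the land plants had 81%, 31%, 76% and 84%, and C. taxifolia had 43%. C. taxifolia and B. rapa were low and the other 3 species high, and the alga differed from the land plant median of 78.5% by -35.5 percentage points. The B. rapa reference matched only 65% of the 20 bases next to C916 in A. thaliana, against 90% for C. taxifolia, and whether that touches its value was not tested. At C1940 of the large subunit 23S rRNA the land plants had 70%, 83%, 88% and 85%, and C. taxifolia had 73%. The alga differed from the median of 84% by -11 percentage points there and was above A. thaliana alone. At C1977 of the same rRNA the land plants had 82%, 90%, 91% and 90%, and C. taxifolia had 90%, which was the land plant median. Over the 3 chloroplast sites the median was 73% in C. taxifolia, against 81%, 83%, 88% and 85% in the land plants, so the algal median was the lowest of the 5 species.

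The 3 mitochondrial sites called in C. taxifolia ranged from 70% to 93%. At C960 of the small subunit 18S rRNA the land plants had 28%, 73%, 75% and 78%, and C. taxifolia had 70%. The alga sat with B. rapa, T. durum and G. biloba, at -4 percentage points from the median of 74%, and A. thaliana was far lower. At C1586 of the large subunit 26S rRNA the land plants had 72%, 92%, 92% and 83%, and C. taxifolia had 93%. This was the highest of the 5 values, by 1 percentage point. At C1549 of the same rRNA the land plants had 8%, 13.8%, 89% and 1.63%, and C. taxifolia had 84%. Only T. durum and C. taxifolia passed the 20% minimum at C1549, and the other 3 land plants were low. The median over the 3 sites called in the alga was 84%, and over the 2 held sites 81.5%, against 50% in A. thaliana, 82.5% in B. rapa, 83.5% in T. durum and 80.5% in G. biloba.

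The sequence next to C1549 was shared by species that were called and species that were not. A run of 27 bases, from 3 before the site to 23 after it, was the same in the references of all 5 species. Further to the 5′ side C. taxifolia differed from A. thaliana, with 70% identity over the 10 bases next to the site. The T. durum value needs its reference beside it. Over 61 bases around C1549 this reference had 100% identity to the wheat chloroplast around C1940, in an exact run of 178 bases, so short reads of the 2 organelles could not be told apart there. In C. taxifolia the same comparison gave 88.5% identity and an exact run of 19 bases, which stayed 19 after every cytosine was turned into thymine. In A. thaliana and G. biloba it gave 90.2% identity and an exact run of 27 bases. The B. rapa references of mitochondrial 26S and chloroplast 23S rRNA are the same letters as those of G. biloba. B. rapa therefore adds no separate value here or to the shared run of 27 bases. Whether reads of the chloroplast rRNA contributed to the 84% of C. taxifolia was not tested, since no reads accompany the percentages. Its own chloroplast level at C1940 was 73%, which does not show how many reads came from either organelle.

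At the 7 held sites C. taxifolia was above the land plant median at 3, under it at 3 and equal to it at 1, and the median difference was 0. It lay outside the land plant range at 2 of the 7, both above it and both in large subunit rRNA, and under the range at 0. The count under the range rests on A. thaliana and B. rapa. Without A. thaliana, C. taxifolia was above the range of the other 3 land plants at 2 sites and under it at 2, namely C960, with 70% against 73% to 78%, and C1940, with 73% against 83% to 88%. Without B. rapa it was under the range at 1, C916, with 43% against 76% to 84%. Counted over the 9 positions with a percentage in every species, 2 (22.2%) had C. taxifolia outside the range. Against single species, C. taxifolia was higher than A. thaliana at 6 of 7 held sites, with a median difference of 8 percentage points and a range from -38 to 42. It was higher than B. rapa at 4 and lower at 2 (median 1), lower than T. durum at 5 and higher at 2 (median -5), and higher than G. biloba at 3 and lower at 3 (median 0). The median absolute difference between C. taxifolia and a land plant was 13 percentage points for A. thaliana, 3 for B. rapa, 5 for T. durum and 8 for G. biloba. Between land plants it was 13 for A. thaliana with B. rapa, 18 with T. durum and 11 with G. biloba, and 2 to 3 for the pairs without A. thaliana. The alga thus stood no farther from B. rapa and T. durum than A. thaliana stood from any land plant, on these 7 sites. The A. thaliana value is a mean of libraries from whole seedlings, and its distance from the rest and its material cannot be told apart.

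The positions where C. taxifolia was not called fell into 2 kinds, another base or a cytosine at a low percentage. In the nuclear 18S cluster, T. durum had 52% at C1703, 53% at each of C1713, C1714, C1715 and C1716, and 52% at C1717. C. taxifolia had thymine at C1703 and C1714, guanine at C1716 and adenine at C1717, so 4 of the 6 clustered positions had no cytosine. It kept the cytosine at the other 2, with 3.30% at C1713 and 0.140% at C1715. The 10 uncalled land plant percentages in this cluster ranged from 0.105% to 0.300%, so the algal 3.30% at C1713 was above all of them and far under the minimum. Without read counts no interval can be given for it. The stretches that align are shown from T. durum, A. thaliana and C. taxifolia, with the listed positions in capitals.
T. durum nuclear 18S C1703 to C1717: gggggCggttcgccgCCCCCgacgt
A. thaliana nuclear 18S C1703 to C1717: gtgggTggttcgccgCCCGCgacgt
C. taxifolia nuclear 18S C1703 to C1717: gtgagTggttcccgCTCGAgacgt
C. taxifolia was 1 base shorter here, with 24 bases against 25, and had 6 cytosines in the stretch against 10 in T. durum and 8 in A. thaliana. In the mitochondrial 26S rRNA, C1566 was at 0.0683% in C. taxifolia and between 0% and 1% in the land plants, although it lies between the called C1549 and C1586. At position 1887 of chloroplast 23S rRNA all 5 species had adenine.

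The chloroplast and mitochondrial rRNAs both descend from bacterial rRNAs, and each of the 3 mitochondrial sites of C. taxifolia aligned with a chloroplast site. C1940 paired with C1549, C1977 with C1586, and C916 with C960. The sites of the large subunit pairs were 37 bases apart in both organelles of all 5 species, with B. rapa references that are the same letters as those of G. biloba. In C. taxifolia the mitochondrial level was the higher in every pair, 84% against 73%, 93% against 90% and 70% against 43%, a difference of 11, 3 and 27 percentage points. In T. durum the differences were 1, 1 and -1, and its organelle references were alike at all 3 pairs. Over 61 bases around C1586 its mitochondrial and chloroplast references were 100% identical, in the same run of 178 bases that covers C1549, and around C960 they were 98.4% identical, with a run of 56. Its mitochondrial values at all 3 sites, including both held ones, therefore carry the same limit on telling reads apart. The G. biloba references around C960 shared an exact run of 16 bases as deposited. After every cytosine was turned into thymine, the run was 69 bases and the identity over 61 bases 93.4%. The G. biloba value at C960 thus carries a like limit, and its effect was not tested. In G. biloba the differences were -83.4, -7 and -6, and in A. thaliana -62, -10 and -53, so the mitochondrial level was the lower in all 3 pairs. B. rapa was mixed, with -69.2, 2 and 42. The sign in C. taxifolia rests on 3 pairs from 1 library and was not tested. Its organelle references shared exact runs of 20 bases around C1586 and 21 around C960. After every cytosine was turned into thymine these were 37 and 21 bases. Whether reads of the chloroplast rRNA contributed to its levels there was not tested.

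**Figure D2:**
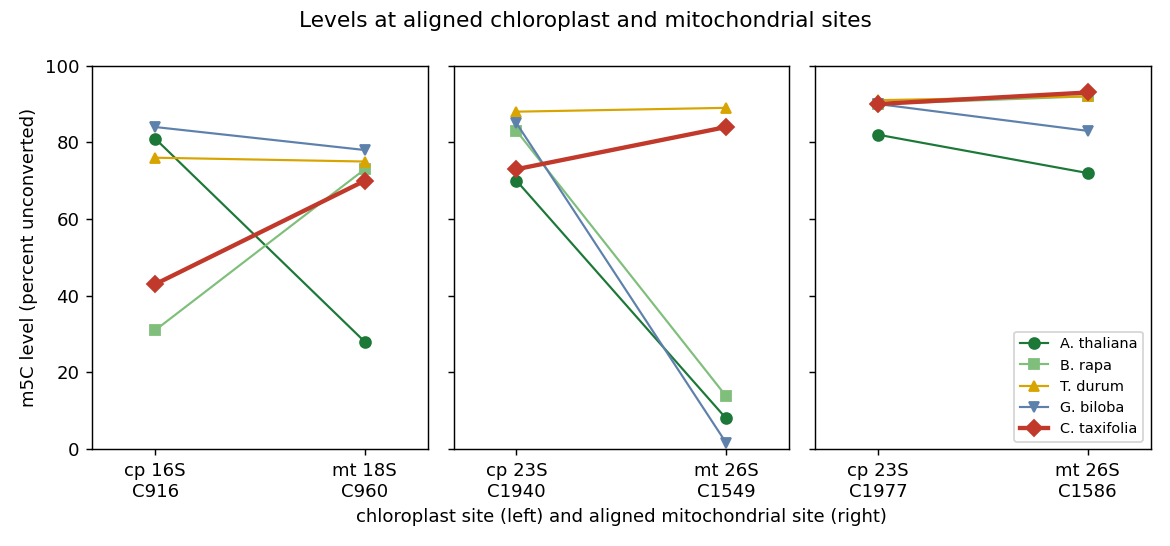
Percent methylation (vertical axis, 0 to 100%) at each chloroplast site (left) and at the mitochondrial site that aligns with it (right), 1 line for each species. The C. taxifolia line rises in all 3 panels, and at C1940 and C1549 it stays high with that of T. durum while the other 3 species drop to between 1.63% and 13.8%.

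The sequence next to the paired sites was shared between organelles to different extents. Around C1940 and C1549, 19 bases were the same in both organelles of A. thaliana, T. durum, G. biloba and C. taxifolia (the stretch tcCtaaggtagcgaaattc, with the site in capitals). Only 5 bases were shared around C1977 and C1586 (cgacC), and 3 around C916 and C960 (Caa). In the algal chloroplast the base before C916 was adenine where the 4 land plants had guanine, while in its mitochondrion the base before C960 was guanine, as in G. biloba, where the other 3 had adenine. After C1977 the alga had thymine in the chloroplast where the land plants had cytosine. After C1586 it had cytosine, as had T. durum, where the other 3 had thymine (B. rapa with the same reference letters as G. biloba). At both places the algal chloroplast thus had the base usual for a land plant mitochondrion, and its mitochondrion the base usual for a land plant chloroplast. Over 61 bases around C1586, the C. taxifolia mitochondrial reference was 82.0% identical to its own chloroplast and 83.6% to the A. thaliana chloroplast, but 70.5% to the A. thaliana mitochondrion. Identity to the A. thaliana chloroplast and mitochondrion was 91.8% and 86.9% around C1549, and 93.4% and 90.2% around C960. Over the whole reference the order was the other way, with 79.4% identity of the algal mitochondrial 26S rRNA to that of A. thaliana and 69.4% to the A. thaliana chloroplast 23S rRNA. For mitochondrial 18S rRNA the whole references gave 74.9% and 73.6%.

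Nuclear and organellar large subunit rRNAs shared a short string at their sites. The bases taaggtagc stood immediately before nuclear C2268 and immediately after chloroplast C1940 and mitochondrial C1549. The string was searched as written, on the rRNA strand alone, and was found in 15 of the 30 large references of the 5 species (50%). These were all 15 large subunit references, with 1 match in each, and 0 of the small subunit ones. The B. rapa large subunit references are the same letters as those of G. biloba, so their matches are not separate ones. C. taxifolia had it 3 times, once in each genome. The methylated cytosine thus flanked the string on its 3′ side in the nuclear rRNA and on its 5′ side in the organellar ones. A match is a description of these letters only.

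The held sites stood in references that had diverged widely between the alga and the land plants. Identity of C. taxifolia to a land plant, as the median over species, was 74.6% in nuclear 25S, 76.7% in nuclear 18S, 78.3% in chloroplast 23S, 83.1% in chloroplast 16S, 75.1% in mitochondrial 26S and 67.2% in mitochondrial 18S rRNA. The same medians between land plants were 88.8%, 94.0%, 93.8%, 96.7%, 86.9% and 77.5%. The ranges did not overlap except in mitochondrial 18S rRNA, where the algal pairs reached 70.8% and the lowest land plant pair was at 67.7%. Each of these pairs includes T. durum. Of overlapping stretches of 31 bases in its mitochondrial 18S reference, 45.0% also occurred in its own chloroplast 16S reference. Among the other species the algal pairs reached 67.5% and the lowest land plant pair was at 77.7%. Of 2968 A. thaliana cytosines in these 6 rRNAs, 2191 (73.8%) were cytosine in C. taxifolia. The share was 90.6% in T. durum and 91.1% in G. biloba. Thymine stood in place of the cytosine at 12.5% of the positions, adenine at 5.26%, guanine at 4.65% and a gap at 3.77%. At the 7 sites called in A. thaliana, C. taxifolia had cytosine at 7. These are the held sites, which need a cytosine in the alga to be called, so this count is no separate observation. The B. rapa references of 25S, 18S, chloroplast 23S and mitochondrial 26S rRNA were the same letters as those of G. biloba, so the B. rapa share is not given and these 4 references were left out of the identities. A. thaliana guided the algal nuclear and mitochondrial references, and whether this raised identity to it was not tested. In nuclear 25S the alga had 79.6% identity to A. thaliana, against 74.6% to T. durum and to G. biloba. In nuclear 18S these were 78.7%, 76.7% and 76.5%. In mitochondrial rRNA the alga was nearer T. durum than A. thaliana, with 77.5% against 75.1% in 26S and 70.8% against 67.5% in 18S.

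**Figure D3:**
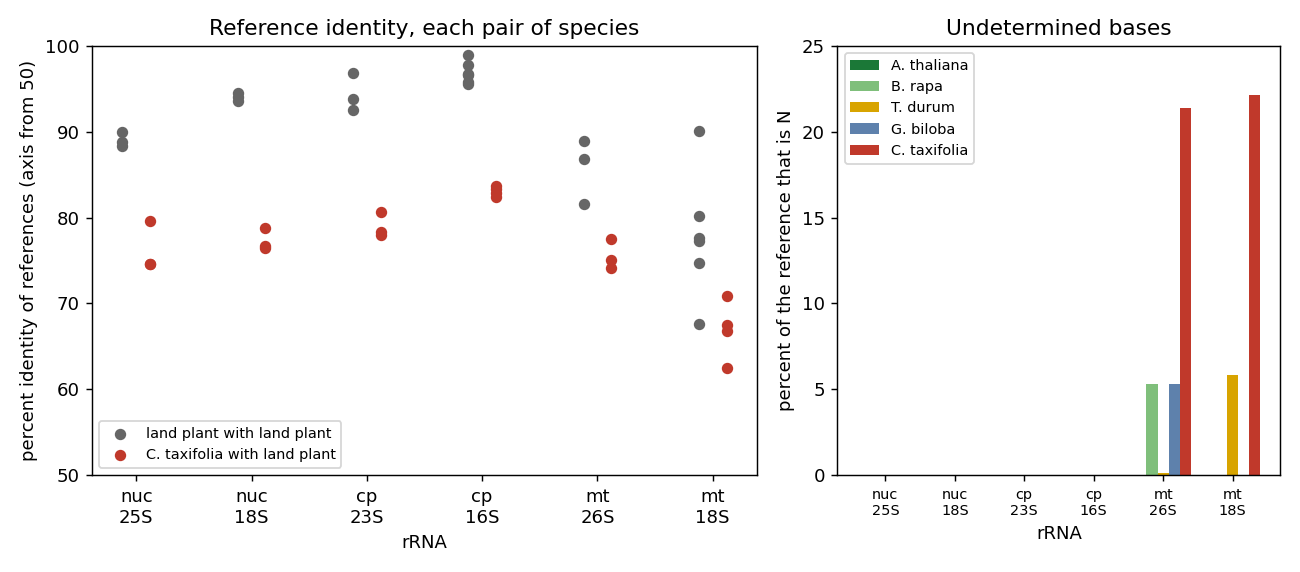
Left, percent identity (vertical axis, from 50) of each rRNA reference (horizontal axis) between 2 land plants (grey) and between C. taxifolia and a land plant (red), 1 point for each pair of species. Right, the percentage of each reference that is N, an undetermined base, by species. C. taxifolia pairs lie lowest for every rRNA, with some overlap in mitochondrial 18S from pairs that include T. durum. The C. taxifolia mitochondrial references hold 21.4% and 22.1% N.

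The surroundings of the called sites varied from identical to as divergent as the rest of the rRNA. Over 10 bases on each side, C. taxifolia matched A. thaliana at 100% around C2268 and C2860, 95% around C1940, 90% around C1977 and C916, 85% around C960 and C1549, and 80% around C1586. The median over these 8 sites was 90%, and over all 2602 A. thaliana cytosines with complete surroundings it was 80%. In nuclear 25S rRNA, 16.5% of the 816 cytosines had surroundings as alike as those of C2268 and C2860. In mitochondrial 26S rRNA, 49.7% of the 481 cytosines matched C1586 or were more alike, so this site did not stand out by its neighbours. At the remaining sites the share within the same rRNA was 30.3% (C960), 34.4% (C1940), 38.5% (C1549) and 48.4% (C916 and C1977). The longest run of bases that was the same in all 5 species and held the site was 77 at C2860, 46 at C2268, 27 at C1549 and 19 at C1940. It was 5 at C1586 and C1977 and 3 at C916 and C960. At the 25S, chloroplast 23S and mitochondrial 26S sites B. rapa adds nothing to these runs, since its references are the same letters as those of G. biloba. Runs were longer with some single species, with 41 bases around C960 and 23 around C916 shared by C. taxifolia and G. biloba. The algal level did not follow the length of this run site by site. The tied shortest, C916 and C960, had 43% and 70%, the next, C1977 and C1586, had 90% and 93%, and the longest, C2860, had 86%.

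**Figure D4:**
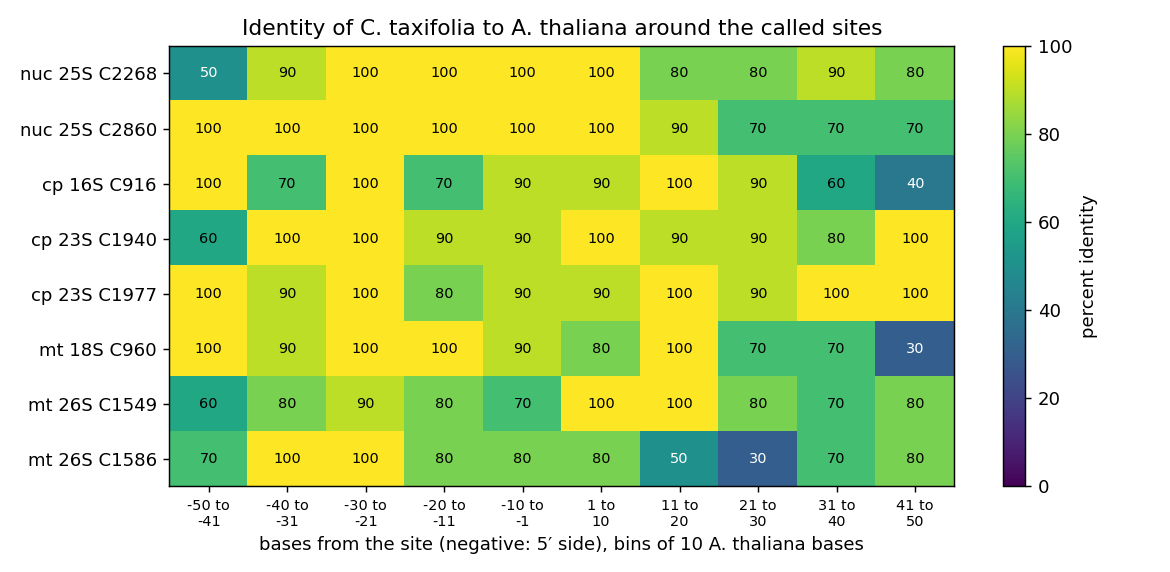
Percent identity of C. taxifolia to A. thaliana (colour and number) in bins of 10 A. thaliana bases (horizontal axis, distance from the site) around the 8 sites called in C. taxifolia (vertical axis). Both nuclear sites are at 100% in the bins next to the site, and mitochondrial C1586 falls to 50% and 30% in the bins from 11 to 30 bases after it.

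The algal references themselves limit some of these values. C. taxifolia had 11 of the 55 references of the 5 species, which the authors built from its RNA-seq reads guided by A. thaliana for the nuclear and mitochondrial rRNAs and by the green alga Chlamydomonas reinhardtii for the chloroplast ones. Its mitochondrial 26S reference had 533 undetermined bases among 2493 (21.4%) and its mitochondrial 18S reference 402 among 1816 (22.1%), in runs of up to 307 and 237 bases. A site inside such a run could not be called. The called mitochondrial sites lay 216 to 376 bases from the nearest undetermined base. The first 19 determined bases of the mitochondrial 26S reference did not align with A. thaliana. Counted per 1000 cytosines of the large rRNAs of each genome, the alga had 1.74 called sites for the nucleus, 3.51 for the chloroplast and 4.18 for the mitochondrion. A. thaliana had 1.64, 2.94 and 1.93, from more cytosines in each, and the mitochondrial figures differ by 1 site and by the undetermined bases.

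The chloroplast large subunit rRNA of C. taxifolia was listed in pieces, as in C. reinhardtii, where the 23S rRNA is preceded by the small 7S and 3S rRNAs. C. reinhardtii was also the guide for these references. The listing therefore cannot show whether the rRNA itself is in pieces in C. taxifolia, and this was not tested. The 7S reference of 282 bases aligned with bases 13 to 259 of A. thaliana 23S rRNA at 81.9% identity. The 3S reference of 47 bases aligned with bases 307 to 350 at 79.5%, and the 23S reference of 2515 bases with bases 379 to 2808 at 82.5%. The last part of the algal 23S reference, bases 2420 to 2508, aligned with bases 2 to 99 of the separate 4.5S rRNA of A. thaliana at 67.7%. Both called sites lay in the 23S piece. The 5 small references of C. taxifolia (chloroplast 3S, 5S and 7S, nuclear 5S and 5.8S) held 181 cytosines and 0 listed sites. Its references named nuclear 5S and 5.8S were the same 164 bases, and the 181 cytosines count them both times. In each land plant the references of these names also had the same length and the same number of cytosines. The 0 listed sites therefore give no separate value for nuclear 5S rRNA.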

How the data were processed

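RBS-seq libraries were made from total RNA, with an in vitro transcribed Renilla luciferase RNA as conversion control. The authors trimmed and mapped reads with CLC Genomics Workbench (version not given in the sources used here) to rRNA references with every cytosine turned into thymine. The deposited percentages give the methylation of each position, with no further normalization, or another base as a letter; the other deposited columns give lengths, numbers of sites and sequences. The study lists total reads for each library and required a minimum coverage at a called site, but the percentages come without read counts, so depth is unknown site by site and no interval is given. The A. thaliana column is the authors' mean. The 1 column of N. oculata was not used.

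Percentages were used as deposited, and no test of a difference between species was run. Dixon's gap rule was used only to mark extreme species values in the closing section. All rRNAs and all listed positions are named, whatever their value. Members and lists were chosen with earlier results of these data known. MAFFT 7.526 (local pairs, 100 iterations) was used to align the references, rRNA by rRNA. Identity left out N and counted a gap as a difference. Organelles were compared with the global aligner of Biopython 1.88 (match 2, mismatch -3, gap opening -5, gap extension -2, free end gaps, N neutral). The comparison was tested on simulated sequences. A. thaliana sites were placed on TAIR10.1 where their 41 bases matched exactly; TAIR10 is the build in the submitters' notes, and all coordinates refer to TAIR10.1. Alternatives covered the calling minimum, each species and site left out, the flank length, gaps, N and the alignment.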

Additional observations from a re-analysis of the deposited data

Results flagged for a closer look

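At each of 12 sites with a percentage in 4 or 5 of the 5 species, the highest and the lowest species were set against the rest by Dixon's gap rule. The rule is made for replicates, which species are not, and chance alone marks about 1 in 20 groups. It marked 6 values, and 0 of them belonged to C. taxifolia. A. thaliana stood apart as low at mitochondrial 18S C960 with 28% and at chloroplast 23S C1977 with 82%, and as high at mitochondrial 26S C1566 with 1%. T. durum stood apart as high at 3 positions of the nuclear 18S cluster, with 53% at C1713, 53% at C1714 and 52% at C1717.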

How the results depend on the processing

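Of 44 alternatives, 22 left the value as it was (a count within 1.5 times), 22 moved it and 0 reversed it. With a minimum of 40% or 60%, 5 sites were called in all 5 species in place of 7, and leaving out any land plant kept 7. With mitochondrial sites left out, chosen after seeing the data, 5 sites were called in C. taxifolia. Without A. thaliana, C. taxifolia lay outside the land plant range at 4 sites in place of 2, with the added 2 under it. The median difference of 0 became 1.75 against the land plant mean, 0.75 without C960, C916 or C1940, -2 without C1586, C2268 or C2860, and -1.25 without C1977. Genome medians over every percentage were 41.2% (nuclear) and 77% (mitochondrial). Surroundings at the called sites were 85% over 5 bases and 91.2% over 20. Those of all A. thaliana cytosines were 82.5% over 20 bases and 85% with pairwise alignment. The share of kept cytosines was 77.7% with pairwise alignment and 68.7% with N as a difference. Identity of the references to A. thaliana, a median of 78.3%, became 82.1% with pairwise alignment and 81.5% without gaps. Identity of the C. taxifolia mitochondrial references to the own chloroplast, 69.4% (26S) and 74.0% (18S), became 76.1% and 78.3% with every cytosine turned into thymine. The causes were not tested.

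No paired analysis was possible because each species other than A. thaliana had 1 library and the result comes from no test. Leaving out single A. thaliana libraries and varying the read minimum were not run, since the column holds a mean and no read counts. Depth, library and species cannot be told apart.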

Other observations

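Of overlapping stretches of 31 determined bases, 28 of 1870 in the C. taxifolia mitochondrial 26S reference and 38 of 1324 (2.87%) in its mitochondrial 18S reference also occurred in its own chloroplast 23S and 16S references, with longest exact runs of 48 and 53 bases. T. durum had 25.7% and 45.0%, with runs of 355 and 389 bases. The other 3 land plants had 0% in 26S and 0% to 0.420% in 18S. In 26S the B. rapa shares repeat those of G. biloba, since the references are the same letters. Of the same C. taxifolia stretches, 4.76% (26S) and 0.982% (18S) occurred in the A. thaliana mitochondrial reference. After every cytosine was turned into thymine, as in the mapping, the share in the own chloroplast was 2.89% and 8.84% in C. taxifolia. Conversion raised the other 3 land plants as well, to between 0.827% and 0.903% in 26S and between 1.10% and 2.64% in 18S. Whether this touches the C. taxifolia mitochondrial percentages was not tested.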
